A study of Mus musculus with 14 samples.

Results

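Pericytes are the mural cells that sit on the wall of brain capillaries. They were examined here among single cells of the nucleus accumbens, a reward region of the ventral striatum, from male C57BL/6 mice injected intraperitoneally with morphine sulfate, an opioid, or with saline (mock). Each of the 4 morphine and 4 mock Drop-seq libraries pooled cells of 2 mice. In both groups replicates 1 and 2 came from mice of 37 to 45 days and replicates 3 and 4 from mice of 78 to 82 days. The dose, the number of injections and the interval to dissection are not given in the sources used here. A barcode stands for 1 droplet, and those with 300 or more detected genes whose UMIs were no more than 20% mitochondrial were kept (a UMI, or unique molecular identifier, marks 1 captured transcript). A barcode was counted as a pericyte when Vtn, Kcnj8, Abcc9, Higd1b and Rgs5 together had at least 5 UMIs, Acta2 and Tagln (smooth muscle) at most 2, and Cldn5, Flt1 and Ly6c1 (endothelium) at most 2. These values chose the members, so levels of the gate genes, and of any other gene set against the other barcodes, are given as descriptions without a test. The gate held 441 of 33225 kept barcodes.

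Pericytes share the basement membrane of the capillary with the endothelium, are recruited by endothelial PDGF-B acting on their receptor PDGFRB, and are known for their part in the blood-brain barrier and in setting capillary diameter. Their ATP-sensitive potassium channel is made of a pore subunit and a sulfonylurea receptor, and its opening hyperpolarizes the cell.

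Morphine pools 1 to 4 held 31, 81, 38 and 55 pericytes, and mock pools 1 to 4 held 56, 91, 31 and 58. The pericyte share of kept barcodes was 1.26% ± 0.154 in morphine pools and 1.40% ± 0.428 in mock pools (SD, n = 4 each), and the difference was within the spread of the pools (two-sided exact permutation test, p = 0.6, where the smallest p that 4 against 4 pools allow is 0.0286). The median depth over all members was 1309 UMIs, against 2171 over all kept barcodes. Pool medians averaged 1366 ± 358 UMIs in morphine pools and 1339 ± 413 in mock pools (SD, n = 4 each; exact permutation p = 0.857). Members ran from 444 to 41302 UMIs, and their sums per pool from 40061 to 187694. More than 10000 UMIs were held by 8 members, which carried 14.0% of all UMIs of the members. The deepest member lay in morphine pool 4, the pool with the highest sum. The median marker sum was 20 UMIs, with a range of 5 to 107. At the edge of the gate, 25 barcodes had a marker sum of 5 and 37 barcodes that met the other limits had 4. Of 724 barcodes with a marker sum of at least 5, 249 were left out by Acta2 and Tagln, 41 by the endothelial genes and 7 by both. No barcode sequence was a member in more than 1 pool, and 40 kept barcode sequences occurred in more than 1 pool.

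The gate genes and the label were looked at first. Vtn, which encodes the matrix and plasma protein vitronectin, had 2769, 4691, 8135 and 2414 CPM (UMIs per 1000000 UMIs of the same barcodes) in the pericytes of morphine pools 1 to 4, against 3760, 5953, 7465 and 2898 CPM in mock pools 1 to 4. Rgs5, a regulator that speeds the shut-off of G proteins, had 3812, 5493, 8712 and 4609 CPM in morphine pools and 3894, 5677, 10211 and 4240 CPM in mock pools. Both genes were highest in the replicate 3 pool of each group, and the groups overlapped. Higd1b, a hypoxia-inducible domain family protein of mitochondria, averaged 667 CPM ± 278 over the 8 pools. Kcnj8 averaged 607 CPM ± 241 and Abcc9 435 CPM ± 223 (SD, n = 8 pools each).

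**Figure D1:**
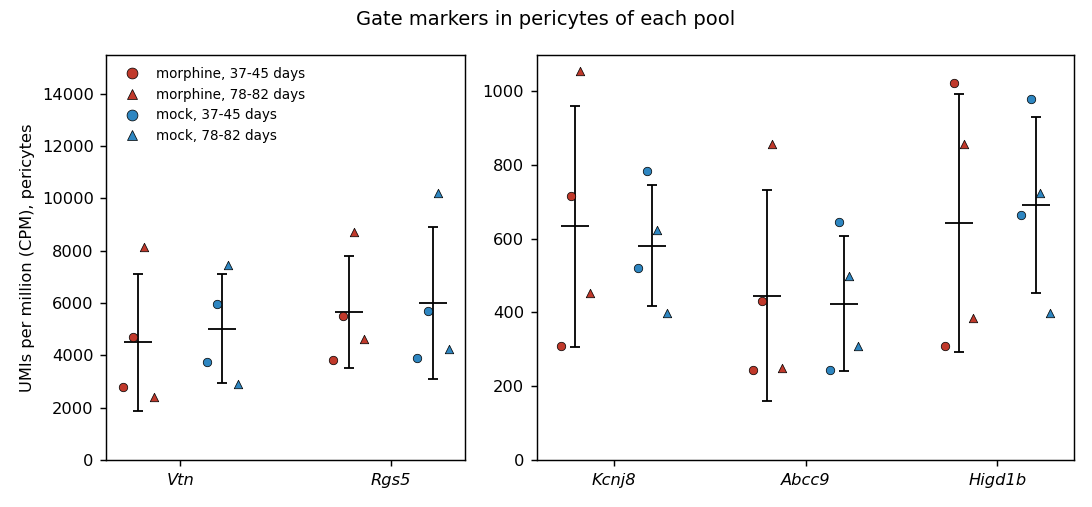
CPM of the 5 gate markers in the pericytes of each pool, morphine in red on the left of mock in blue, with circles for mice of 37 to 45 days and triangles for 78 to 82 days. Bars are the mean and SD of 4 pools, and the groups overlap for each marker.

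The markers did not mark one uniform set of barcodes. All 5 were detected in 100 members, 4 in 127, 3 in 98, 2 in 47 and only 1 in 69. Vtn had a UMI in 94.3% of members, Rgs5 in 87.1%, Higd1b in 58.3%, Kcnj8 in 49.2% and Abcc9 in 43.3%. In endothelial barcodes, chosen by Cldn5, Flt1 and Ly6c1 with the mural markers at most 2, these shares are held down by their own gate. There Vtn had a UMI in 1.47%, Rgs5 in 5.95% and Kcnj8 in 0.320% of 1564 barcodes, at a median depth of 1655 UMIs against 1309 in pericytes. After each barcode was thinned to 1000 UMIs, which left out 132 pericytes and 298 endothelial barcodes that were shallower, Vtn was found in 84.8% of pericytes and 0.948% of endothelial barcodes.

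In 50 of the 441 members Kcnj8, Abcc9, Higd1b and Rgs5 were all at 0, and Vtn alone carried them through the gate. These Vtn-only members go against the label. Summed over them, Dcn and Col1a2, a matrix proteoglycan and a chain of type I collagen that fibroblasts make, had 5360 and 3087 CPM, against 30.3 and 138 CPM in the other 391 members. Igf2, an insulin-like growth factor made by leptomeningeal and perivascular fibroblasts, had 9440 CPM in the Vtn-only members and 366 CPM in the others. Lum, another proteoglycan of fibroblasts, was found in 25 of the 50 and in 0 of the 391, which allows up to 0.767% of those members with a UMI. At their median of 1242 UMIs this bounds detection and not expression. Slc6a13, a GABA and taurine transporter of meningeal fibroblasts, was in 43 of 50 and in 24 of 391. P2ry14 and Atp13a5, which stand out in brain pericytes, had 21.1 and 10.6 CPM in the Vtn-only members, against 521 and 288 CPM in the others. Pdgfrb, which fibroblasts also carry, had 180 CPM in the Vtn-only members and 240 CPM in the others. The split was made after these values had been seen, so it carries no test.

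Over a list of 11 vascular fibroblast genes, the Vtn-only members held a median of 104 UMIs with a lowest value of 13, and the others a median of 3. Morphine pools 1 to 4 had 3, 9, 7 and 4 Vtn-only members, and mock pools 1 to 4 had 11, 7, 4 and 5. Because the fibroblast list summed to 4465 to 24843 CPM in morphine pools and 4464 to 22994 CPM in mock pools, the fits across genes were repeated without these 50. The gated set is called pericytes here by its rule. The 391 others each held at least 1 UMI of Kcnj8, Abcc9, Higd1b or Rgs5. Of these 391, 102 also held 5 or more UMIs of the fibroblast list.

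**Figure D2:**
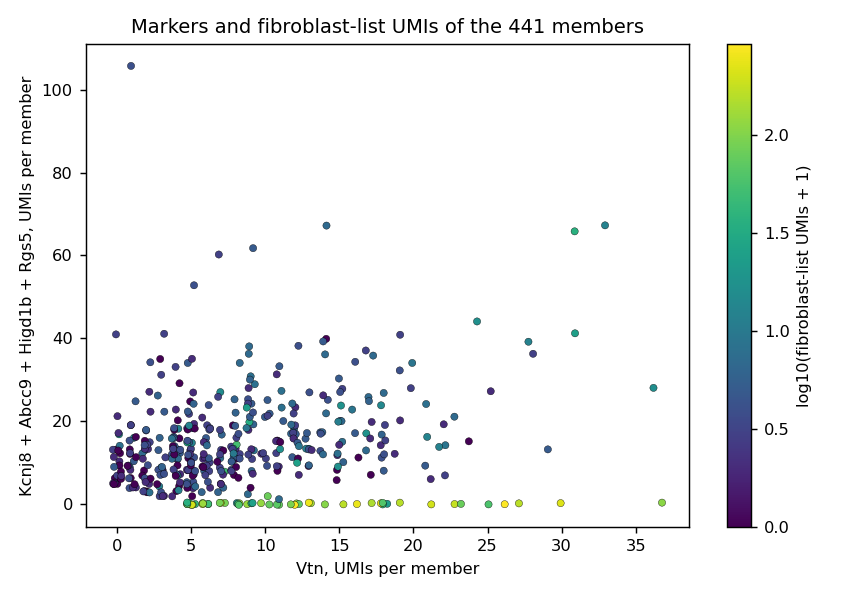
Vtn UMIs (x axis) and the summed UMIs of Kcnj8, Abcc9, Higd1b and Rgs5 (y axis) in each of the 441 members, shifted slightly at random so that points do not hide each other, with colour for log10 of fibroblast-list UMIs plus 1. The 50 members along the base, with 0 UMIs of the other 4 markers, carry the highest fibroblast-list counts.

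Kcnj8 and Abcc9 encode the partners of one channel, the pore Kir6.1 and the sulfonylurea receptor SUR2. Kcnj8 had 310, 715, 1050 and 453 CPM in morphine pools, against 521, 782, 624 and 397 CPM in mock pools. Abcc9 had 244, 430, 855 and 250 CPM in morphine pools, against 245, 645, 499 and 308 CPM in mock pools. The pools of the 2 groups overlapped for both genes. Both transcripts were seen in 139 members, Kcnj8 without Abcc9 in 78, Abcc9 without Kcnj8 in 52 and neither in 172. In smooth muscle barcodes (chosen by an Acta2 and Tagln sum of at least 5), which share Rgs5 at 5352 CPM, Kcnj8 averaged 15.2 CPM and Abcc9 9.58 CPM. In endothelial barcodes they averaged 1.12 and 0.727 CPM. Of the 5 markers, this pair and Vtn (304 CPM in smooth muscle) had the largest ratio of pericyte to smooth muscle level.

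The pair lie beside each other on mouse chromosome 6 (GRCm38): Kcnj8 from 142564837 to 142571614 and Abcc9 from 142587862 to 142702766, with 16247 bases between them and no other annotated gene in the gap. Their promoters are shown because the genes sit together and encode one channel, and that of Vtn (chromosome 11) because it alone admitted 50 members. RefSeq's promoter table for GRCm38.p6 held 4 of the 5 gate markers, as 250 bases before to 50 after the gene's start. Capitals mark matches, on either strand, to the E-box CANNTG, the GC box GGGCGG or the TATA letters TATAAA, which 72.3%, 35.9% and 13.6% of 32544 distinct promoters of that length hold. Kcnj8 (chr6:142571565-142571864) and Abcc9 (chr6:142702225-142702524) are given 5′ to 3′ on the minus strand and Vtn (chr11:78498870-78499169) on the plus strand. The Abcc9 window is set on a start at 142702274, which lies 492 bases inside the outermost end given above, while the Kcnj8 and Vtn windows are set on the gene ends.
Kcnj8: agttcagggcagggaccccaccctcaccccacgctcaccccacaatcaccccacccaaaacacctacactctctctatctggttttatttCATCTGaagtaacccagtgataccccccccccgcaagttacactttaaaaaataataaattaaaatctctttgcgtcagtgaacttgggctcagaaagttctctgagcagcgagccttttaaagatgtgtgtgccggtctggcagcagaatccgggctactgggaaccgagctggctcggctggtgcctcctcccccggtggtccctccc
Abcc9: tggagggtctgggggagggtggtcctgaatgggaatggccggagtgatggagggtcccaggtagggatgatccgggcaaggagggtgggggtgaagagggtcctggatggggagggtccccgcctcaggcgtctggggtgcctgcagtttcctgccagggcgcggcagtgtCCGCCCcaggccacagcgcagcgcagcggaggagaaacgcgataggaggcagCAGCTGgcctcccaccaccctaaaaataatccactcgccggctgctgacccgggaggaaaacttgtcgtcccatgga
Vtn: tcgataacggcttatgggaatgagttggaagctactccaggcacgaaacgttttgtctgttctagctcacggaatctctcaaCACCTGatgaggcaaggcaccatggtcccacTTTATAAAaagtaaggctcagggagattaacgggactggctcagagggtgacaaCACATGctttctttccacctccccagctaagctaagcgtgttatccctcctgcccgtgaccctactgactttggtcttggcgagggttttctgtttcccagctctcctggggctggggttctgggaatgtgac
The Kcnj8 window held 1 E-box match. The Abcc9 window held 1 E-box match and 1 GC box match. The Vtn window held 2 E-box matches and 2 TATA matches that overlap each other. A match is a description of these letters and not of a bound site.

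Outside the gate, the 20 genes with the highest ratio of pericyte to other CPM, among those with a UMI in at least 15% of members, fall into a few roles. P2ry14, a receptor for UDP-sugars, averaged 535 CPM ± 246 in pericytes, 1.32 in endothelial, 110 in smooth muscle and 2.37 in all other kept barcodes (SD over 8 pools). Atp13a5, a P5-type ATPase transporter, averaged 307 CPM ± 171 in pericytes and 10.6 CPM in smooth muscle. Slc6a20a, a proline and imino acid transporter, averaged 324 CPM ± 115 in pericytes and 21.3 in smooth muscle. Pla1a, a phosphatidylserine phospholipase, averaged 201 CPM ± 76.4 in pericytes, 1.66 in smooth muscle and 0.522 in all other barcodes. These transporters and enzymes were much lower in smooth muscle than in pericytes.

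Sod3, the extracellular superoxide dismutase, averaged 746 CPM ± 412 in pericytes, 2.24 in endothelial and 149 in smooth muscle barcodes. Art3, of the ADP-ribosyltransferase family, averaged 407 CPM ± 132 in pericytes and 55.9 in smooth muscle. Ifitm1, an interferon-inducible membrane protein, averaged 403 CPM ± 165 in pericytes and 29.8 in smooth muscle.

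A pair of respiratory-chain paralogs stood beside Higd1b. Ndufa4l2, the hypoxia-responsive relative of the cytochrome c oxidase subunit Ndufa4, averaged 426 CPM ± 222 in pericytes, 0.183 in endothelial and 233 in smooth muscle barcodes. Its widely expressed paralog Ndufa4 averaged 616 CPM in pericytes and 660 in endothelial barcodes. Cox4i2 averaged 238 CPM ± 118 in pericytes, 2.59 in endothelial and 87.9 in smooth muscle barcodes. Cox4i1, the usual isoform, averaged 932 CPM in pericytes and 807 CPM in endothelial barcodes. Higd1b averaged 667 CPM in pericytes and 0.928 in endothelial barcodes, and Higd1a 100.5 and 102 CPM. In the Ndufa4 and Cox4i pairs one paralog was nearly absent from endothelial barcodes and the other had a like level in both classes. The Higd1b level in each class is held by the gates themselves.

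Several of the 20 had a higher level in the Vtn-only members than in the others, although the others can hold more of their UMIs in all. Spp1 (osteopontin) had 2865 CPM in the Vtn-only members and 493 CPM in the other members, with 271 and 407 UMIs. Nupr1, a stress-induced nuclear protein, had 2283 and 107 CPM, and Pcolce, an enhancer of procollagen processing, 1438 and 71.5 CPM. Colec12, a scavenger receptor, had 1543 and 214 CPM, and Bgn (biglycan) 1131 and 165 CPM. Igf2, Dcn, Col1a2 and Slc6a13 show the same. Slc6a20a was also higher there, with 486 CPM in the Vtn-only members and 279 CPM in the others. Sod3 was present in both, at 455 and 659 CPM. Pericyte means of all these genes therefore mix both kinds of member. Ecm2, a matrix protein gene, averaged 313 CPM in pericytes and 4.89 in all other barcodes, and ran the other way, with 10.6 CPM in the Vtn-only members and 320 CPM in the others.

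**Figure D3:**
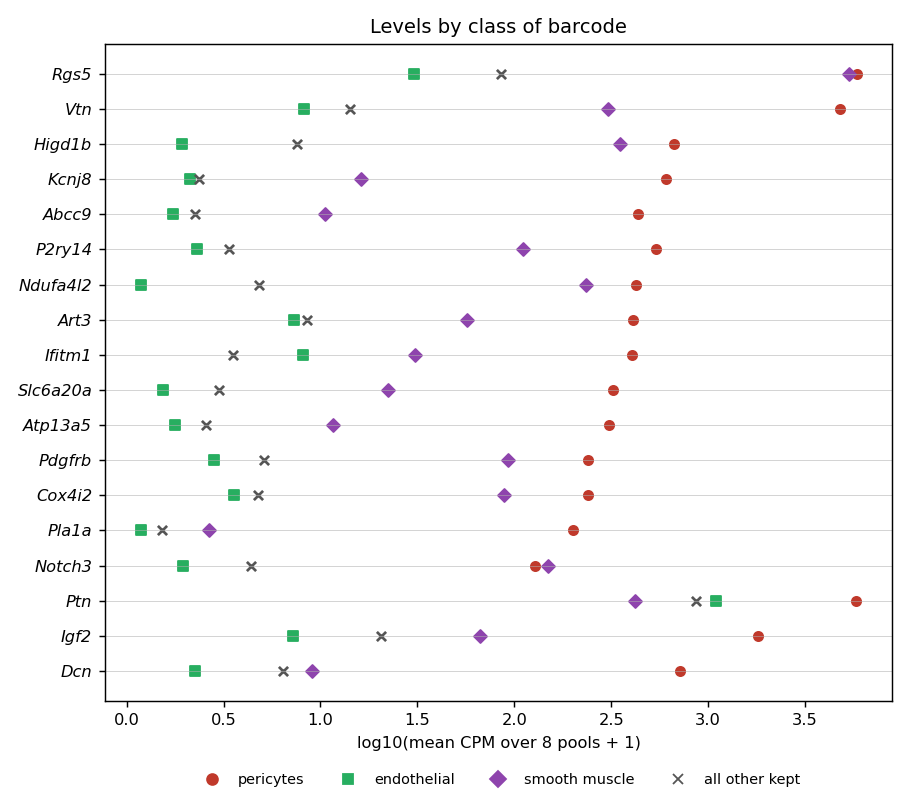
Mean level over the 8 pools, as log10 of CPM plus 1, of named genes in pericytes, endothelial, smooth muscle and all other kept barcodes. Rgs5 lies at nearly one place in pericytes and smooth muscle, while Kcnj8, Abcc9, Atp13a5 and Pla1a are far lower in smooth muscle, and Igf2 and Dcn come mostly from the Vtn-only members.

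Receptors and ligands known from mural biology were present. Pdgfrb averaged 240 CPM in pericytes, 1.82 in endothelial and 92.2 in smooth muscle barcodes. Notch3, the Notch receptor of mural cells, averaged 126 CPM in pericytes and 148 in smooth muscle. Its target Heyl averaged 87.6 CPM in pericytes and 55.9 in smooth muscle. The sphingosine phosphate receptor S1pr3 averaged 194 CPM in pericytes and 141 in smooth muscle. Ptn, the secreted growth factor pleiotrophin, averaged 5803 CPM in pericytes, 1099 in endothelial and 419 in smooth muscle barcodes, and had 12706 CPM in the Vtn-only members against 4099 CPM in the others.

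For tone, Gucy1b1, a subunit of the nitric oxide receptor guanylyl cyclase, averaged 604 CPM in pericytes, 545 in smooth muscle and 80.4 in endothelial barcodes. Contractile genes outside the gate were far lower than in smooth muscle: Myh11 averaged 123 CPM in pericytes and 4008 in smooth muscle, and Tpm2 119 and 2660 CPM. Basement membrane genes were shared with the endothelium, with Col4a1, a chain of type IV collagen, at 348 CPM in pericytes and 386 in endothelial barcodes. The laminin chain gene Lamc1 averaged 219 CPM in pericytes and 42.1 in endothelial barcodes, and Lama4 120 and 47.3 CPM.

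Transcripts of other cell types were common in the members. More than 5 UMIs of a neuron list were held by 166 members, of an oligodendrocyte list by 155 and of an astrocyte list by 124. For oligodendrocyte precursors the number was 11, for red blood cells 7 and for microglia 6, and 155 members held at most 5 of each of these lists. The neuron list summed to 7683 CPM in pericytes on average, against 12819 CPM in all other barcodes. Whether free RNA or a further cell in the droplet carried them was not tested. The astrocyte list summed to 3215 CPM in pericytes and the endothelial list to 497 CPM, and of the defining markers in these lists only Cnn1 of smooth muscle was at 0.

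The study asked how cells of the accumbens respond to morphine, and no gene passed the test in pericytes. Of 3020 genes tested on sums per pool, 0 (0%) had an adjusted p under 0.05 in edgeR's quasi-likelihood test, and 49 (1.62%) had an unadjusted p under 0.05. DESeq2 also called 0, with 34 genes at an unadjusted p under 0.05. In 19 genes (0.629%) every morphine pool lay above every mock pool, and in 28 (0.927%) every one lay below. The gate markers chose the members, so their log2 differences are given without a test: -0.11 for Vtn, 0.16 for Kcnj8, 0.09 for Abcc9, -0.07 for Higd1b and -0.05 for Rgs5.

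One list whose tested members all lay on one side was that of 30 glucocorticoid-responsive genes, chosen with earlier results of these cells known, so its direction is not independent evidence. Of its 14 tested members 0 were called, all 14 had a log2 difference above 0, and their median was 0.69, against 0.0012 over all genes tested. Only these 14 of the 29 measured members passed the filter on low counts. Fkbp5, a member that did not pass, had a log2 difference of -0.25 when tested without that filter. Unadjusted p-values under 0.05 came for 5 of the 14, against 1.62% of all genes, but for 2 members without morphine pool 3 or without mock pool 4, and for 0 in the younger pools alone. Summed over the list, pericytes held 9612, 6230, 9050 and 5553 CPM in morphine pools 1 to 4, against 5545, 6307, 5393 and 3390 CPM in mock pools 1 to 4. Morphine pools 2 and 4 lay within the range of the mock pools.

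Sgk1, a kinase that acts on ion transport, had 310, 58.4, 219 and 229 CPM in morphine pools, against 31.6, 130, 49.9 and 33.6 CPM in mock pools. Its log2 difference was 1.66 ± 0.57 (SE) with an adjusted p of 1.00 in edgeR's test. The groups overlapped, because morphine pool 2 lay below mock pool 2. These values rest on 81 UMIs in morphine pools and 30 in mock pools.

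Txnip, an inhibitor of thioredoxin and of glucose uptake, had 81.5, 87.5, 497 and 95.9 CPM in morphine pools, against 47.4, 36.2, 49.9 and 50.3 CPM in mock pools. Every morphine pool lay above every mock pool, with a log2 difference of 1.89 ± 0.64 (SE) and an edgeR adjusted p of 1.00. Without morphine pool 3 the difference was 1.00. Txnip had 391 CPM in the Vtn-only members and 54.5 CPM in the others.

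Klf9, a transcription factor gene, had 538, 576, 636 and 714 CPM in morphine pools, against 221, 471, 499 and 436 CPM in mock pools. It was the other list gene whose pools did not overlap (log2 difference 0.66, adjusted p = 1.00, edgeR). Tsc22d3, which encodes the glucocorticoid-induced leucine zipper, had 310, 263, 676 and 160 CPM in morphine pools, against 197, 167, 99.9 and 55.9 CPM in mock pools. Here morphine pool 4 lay below 2 mock pools, and the log2 difference of 1.38 was 0.86 without morphine pool 3. Nfkbia, the inhibitor of NF-kB, differed by 1.06 on the log2 scale (edgeR adjusted p = 1.00) and by 0.56 without morphine pool 3, and Cdkn1a, the cell cycle inhibitor p21, by 1.10. The glucocorticoid receptor gene Nr3c1 had 139 to 244 CPM in morphine pools and 103 to 225 CPM in mock pools.

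In all other kept barcodes of the same pools Sgk1 averaged 206 CPM in morphine and 128 CPM in mock, and Txnip 27.8 and 25.8 CPM. The list held its direction within each age. In the younger pools 10 of 12 tested members were above 0 with a median of 0.54, and in the older pools 13 of 15 with a median of 0.60. Without the 50 Vtn-only members it was 12 of 12 tested members with a median of 0.79. Txnip fell short of the filter on low counts there and was not among these genes. None was called in any of these fits.

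Angptl4, a lipase inhibitor induced by fasting and glucocorticoids, is named after its values were seen. It had 8, 15, 19 and 12 UMIs in morphine pools 1 to 4, against 1, 3, 2 and 4 UMIs in mock pools 1 to 4. That corresponds to 130, 109, 378 and 63.9 CPM in morphine pools and 7.90, 21.7, 49.9 and 22.4 CPM in mock pools, with no overlap. The gene fell short of the filter on low counts. Tested without that filter it was the only one of 15497 genes called, with a log2 difference of 2.77 ± 0.57 (SE) and an edgeR adjusted p of 0.0206. It also passed the filter in 7 fits that left out pools or members, with log2 differences of 2.54 to 3.17, and was called in none of them (edgeR adjusted p of 0.793 to 1.00). These fits share pools and members, so their differences are not independent. Angptl4 passed in them only through its morphine pools, because its mock counts were too low for the filter. In the 391 members outside the Vtn-only group it had 106, 64.4, 279 and 22.6 CPM in morphine pools, against 0, 15.6, 0 and 6.02 CPM in mock pools. In endothelial barcodes Angptl4 averaged 111 CPM in morphine pools and 44.4 CPM in mock pools, and in all other barcodes 8.19 and 3.79 CPM.

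**Figure D4:**
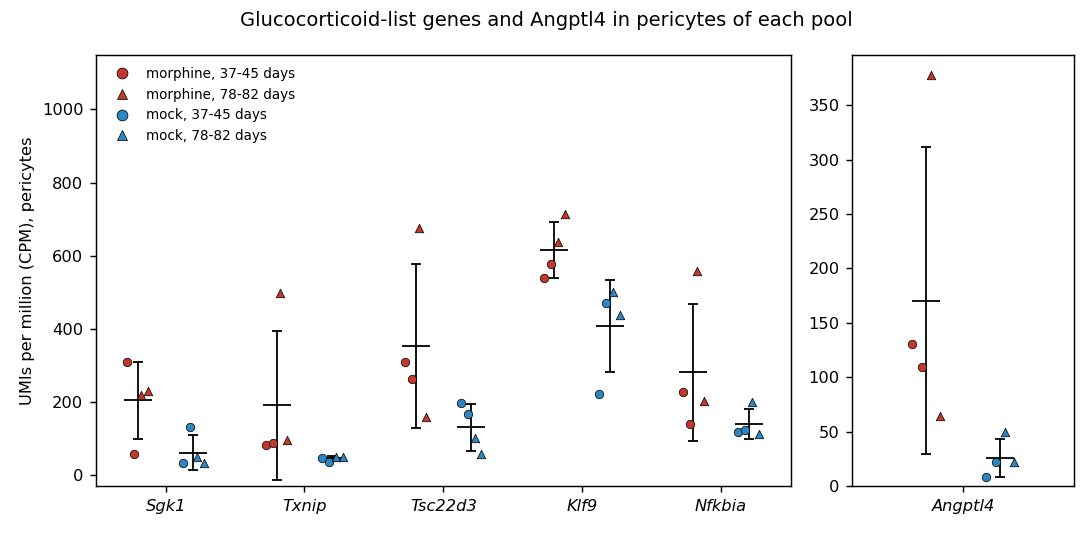
CPM in the pericytes of each pool for 5 glucocorticoid-list genes and Angptl4, morphine in red on the left of mock in blue, circles for 37 to 45 days and triangles for 78 to 82 days, with the mean and SD of 4 pools. Txnip, Klf9 and Angptl4 have no overlap between groups, and morphine pool 3 is the highest point for Txnip, Tsc22d3, Nfkbia and Angptl4.

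The gene of smallest p was Hbb-bs, a beta globin of red blood cells, with 228, 190, 59.7 and 37.3 CPM in morphine pools and 6200, 3708, 150 and 67.1 CPM in mock pools. Its log2 difference was -4.32 with an edgeR adjusted p of 1.00. Of the 1401 globin UMIs of mock pool 1, 1093 lay in 1 member, and of the 1073 of mock pool 2, 1023 lay in 1 member. Cpm (a membrane carboxypeptidase), D10Jhu81e, Mphosph8 (a reader of histone methylation), Suco and Resp18 had log2 differences of 1.27, 1.28, 1.01, 1.44 and 1.35, and Naxe and Abcd3 (a peroxisomal transporter) of -1.21 and -1.09. None passed the edgeR test, each with an adjusted p of 1.00.

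The mitochondrial ribosomal RNA gene mt-Rnr2 had 41151, 48286, 39363 and 59501 CPM in morphine pools, against 32343, 28959, 25540 and 29591 CPM in mock pools. Every morphine pool lay above every mock pool (log2 difference 0.73 ± 0.40 SE, edgeR adjusted p = 1.00). All other barcodes of the same pools had 38468 CPM in morphine and 21987 CPM in mock on average. The median mitochondrial percent per pericyte averaged 6.79% ± 1.93 in morphine pools and 5.04% ± 0.972 in mock pools (SD, n = 4 each; exact permutation p = 0.143). Without the 2 ribosomal RNA genes the difference was -0.11 percentage points. Of the 8 tested mitochondrial genes 4 were above 0 and 4 below, with a median of -0.04.

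Of pericyte identity genes outside the gate 8 of 20 tested were above 0 (median -0.08), of matrix genes 7 of 13 (median 0.00), of signalling genes 3 of 9 (median -0.18), of tone genes 8 of 15 (median 0.01), of transporters 6 of 10 (median 0.15) and of respiratory paralogs 2 of 6 (median -0.09). With 1 pool left out these medians crossed 0, from -0.26 to 0.15 for identity, -0.50 to 0.17 for matrix, -0.07 to 0.18 for tone and -0.38 to 0.33 for transporter genes. Of heat shock genes 5 of 11 were above 0 (median -0.04), and Hspa1a and Hspa1b, inducible chaperones, differed by -0.07 and 0.34. Of interferon genes 3 of 5 were above 0 (median 0.06) and of chemokine and adhesion genes 2 of 4 (median -0.20). Immediate early genes were above 0 in 10 of 10 (median 0.35), with 919 to 6345 CPM summed in morphine pools and 1303 to 4294 CPM in mock pools. Without morphine pool 4 it was 7 of 10 (median 0.14), without morphine pool 1 13 of 13 (median 0.84), and in the younger pools alone 5 of 8 (median 0.03).

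Oligodendrocyte genes were above 0 in 10 of 10 (median 0.59), with 5770 to 32162 CPM summed in morphine pools and 3877 to 15533 CPM in mock pools. Morphine pool 3 was the highest of the 8, and without it 5 of 10 were above 0 (median -0.04). In the younger pools alone 2 of 10 were above 0 (median -0.75). Smooth muscle genes were above 0 in 5 of 6 (median 0.27), fibroblast genes in 4 of 8 (median -0.10), astrocyte genes in 2 of 8 (median -0.23), neuron genes in 3 of 11 (median -0.15), oligodendrocyte precursor genes in 0 of 3 (median -0.55), endothelial genes in 0 of 2 (median -0.42), and the single tested microglial (-0.67) and red cell (-4.32) genes were below. None of these genes was called.

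Opioid receptor transcripts were few. Oprm1, the mu receptor that binds morphine, had 0 UMIs in the 205 pericytes of morphine pools, which allows up to 6.86 CPM at a floor of 3 counts over the group, and 2 UMIs in the 236 of mock pools, where all other barcodes averaged 2.85 CPM over both groups. Oprd1 had 1 UMI in morphine pools and 2 in mock pools, and Oprl1 3 and 7. Oprk1, the kappa receptor, had 7 UMIs in morphine pools, at 0 to 29.2 CPM, and 26 UMIs in mock pools, at 0 to 106 CPM. Mock pool 4 held 19 of the 26, and all other barcodes averaged 47.2 CPM in morphine pools and 46.1 CPM in mock pools. Penk, an opioid peptide precursor of striatal neurons and the only tested gene of this list, differed by -0.05.

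Whether pericytes respond unlike the endothelium was tested as an interaction of barcode class and treatment, the pool being a block. Of 5913 genes 0 (0%) were called by edgeR, with 182 (3.08%) at an unadjusted p under 0.05. Fkbp5, a cochaperone of the glucocorticoid receptor, had the smallest p. It had 32.6, 73.0, 99.5 and 63.9 CPM in pericytes of morphine pools, against 39.5, 79.7, 74.9 and 123 CPM in mock pools. Endothelial barcodes had 166, 128, 257 and 175 CPM in morphine pools, against 26.3, 48.3, 83.3 and 116 CPM in mock pools. The pericyte minus endothelial response was -1.65 ± 0.46 on the log2 scale (SE), with an edgeR adjusted p of 1.00. The pericyte pools overlapped and the endothelial pools did not, but the difference between the classes did not pass the test, and the endothelial test itself called 0 of 7182 genes.

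For age more genes had an unadjusted p under 0.05 in edgeR's test than for morphine (84 against 49 of 3020), although none was called. Both counts are smaller shares of the genes tested than the threshold of 0.05. The 4 pools of 78 to 82 days were set against the 4 of 37 to 45 days with treatment as a covariate. Of 3020 genes 0 (0%) were called, with 84 (2.78%) at an unadjusted p under 0.05 and a smallest adjusted p of 0.216. In 42 genes (1.39%) every older pool lay above every younger one and in 59 (1.95%) every older pool lay below. DESeq2 called 8 genes on the same sums: Fos, Fosb, Jun and Hspa1a were higher in older pools, and Mt1, Mt2, Mt3 and Hbb-bs lower. Without morphine pool 3, edgeR called 2, Hba-a1 and Hbb-bs. Ages were prepared as separate replicate numbers, so age and any difference in preparation cannot be told apart.

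The early-response genes were high in older pools. Fos, a transcription factor gene induced within minutes of stimulation, had 2168 and 895 CPM in older morphine pools and 999 and 364 CPM in older mock pools, against 472 and 94.8 CPM in younger morphine pools and 103 and 196 CPM in younger mock pools. Its older minus younger log2 difference was 2.34 ± 0.56 (SE; adjusted p = 0.427 by edgeR and 0.0322 by DESeq2). Mock pool 4 lay below morphine pool 1, so the ages overlapped. Jun had 492 to 698 CPM in older pools and 79.7 to 277 CPM in younger pools with no overlap (log2 difference 1.92 ± 0.38 SE, edgeR adjusted p = 0.244). Fosb had 101 to 275 CPM in older pools and 0 to 81.5 CPM in younger pools.

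Hspa1a had 293 to 696 CPM in older pools and 51.1 to 182 CPM in younger pools (log2 difference 2.12 ± 0.44 SE, edgeR adjusted p = 0.244). All 10 tested immediate early genes were above 0, with a median of 1.24, against -0.01 over all genes. In endothelial barcodes Fos averaged 1782 CPM in older pools and 443 CPM in younger pools, and Jun 1703 and 573 CPM. Hspa1a averaged 292 CPM in older and 323 CPM in younger endothelial barcodes.

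Metallothionein genes, whose proteins bind zinc and copper, ran the other way. Mt1 had 915 and 970 CPM in older morphine pools and 599 and 571 CPM in older mock pools, against 3568 and 1583 CPM in younger morphine pools and 2156 and 1977 CPM in younger mock pools (log2 difference -1.63 ± 0.35 SE, adjusted p = 0.244 by edgeR and 0.00828 by DESeq2). Mt2 had 99.9 to 346 CPM in older pools and 553 to 1450 CPM in younger pools, and Mt3 125 to 192 CPM in older pools and 343 to 798 CPM in younger pools. The ages did not overlap for any of the 3. Astrocytes carry much of the Mt1, Mt2 and Mt3 RNA of brain, and the astrocyte list moved with these genes: 7 of its 8 tested members were below 0 with a median of -0.98, and its summed level was 1443 to 3336 CPM in older pools and 3378 to 4944 CPM in younger pools. Its part in the metallothionein difference was not tested. In all other barcodes Mt1 averaged 1209 CPM in older pools and 2116 CPM in younger pools.

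Hbb-bs had 37.3 to 150 CPM in older pools and 190 to 6200 CPM in younger pools (log2 difference -4.28 ± 0.72 SE, edgeR adjusted p = 0.216), and mock pools 1 and 2 held the globin-rich members described above. The younger morphine pools, at 228 and 190 CPM, also lay above every older pool. Tmem263 and Bcan, a proteoglycan of glia, had log2 differences of -2.08 and -2.25 (edgeR adjusted p = 0.427 each). Of the pericyte identity genes outside the gate 11 of 20 tested were above 0, with a median of 0.10. Matrix genes were above 0 in 12 of 13 with a median of 0.32, fibroblast genes in 8 of 8 with a median of 0.72, and tone genes in 11 of 15 with a median of 0.22, and none was called. Without morphine pool 3 matrix genes were above 0 in 6 of 14 (median -0.12), fibroblast genes in 5 of 8 (median 0.14) and tone genes in 9 of 16 (median 0.12). Without the Vtn-only members the 4 tested fibroblast genes had a median of 0.41 and matrix genes one of 0.46. The pericyte share averaged 1.16% ± 0.139 in older pools and 1.502% ± 0.353 in younger pools (SD, n = 4 each; exact permutation p = 0.114).

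**Figure D5:**
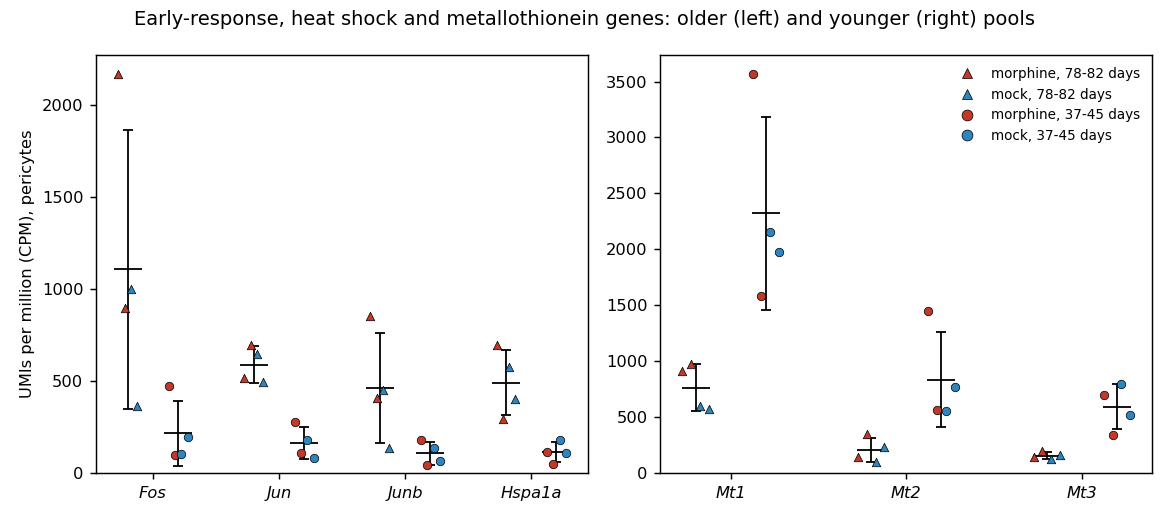
CPM in the pericytes of each pool for 4 early-response and heat shock genes and 3 metallothioneins, pools of 78 to 82 days (triangles) on the left of pools of 37 to 45 days (circles), morphine in red and mock in blue, with the mean and SD of 4 pools. Jun and Hspa1a are higher and Mt1, Mt2 and Mt3 lower in every older pool, while Fos and Junb overlap.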

How the data were processed

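Single-cell suspensions of the nucleus accumbens, made with papain per the labels' protocols, were processed by Drop-seq, and the deposited tables hold raw UMI counts per gene symbol and barcode, made by the authors with DigitalExpression per the file headers. Per the submitters' processing notes the tools were STAR 2.4.2a, Trimmomatic 0.36, HTSeq, DESeq and DESeq2, and the build mm10; which data each served is not given in the sources used here. Every barcode's counts equalled the authors' summary totals. Replicate 1 pools use another annotation: 1220 symbols were renamed through the reference tables. Symbols found only in replicate 1 pools (6120) or only in the other pools (3988) were left out. They held 0.813% and 0.746% of the UMIs of morphine and mock pool 1. The sorted oligodendrocyte libraries of the series were not analysed here.

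The gate kept 441 barcodes. No doublet caller was run; limits on other cell types' UMIs and on depth served as alternatives. Counts were summed per pool and gene, and CPM is per 1000000 UMIs. Morphine against mock, age, and class by treatment were tested with edgeR 4.0.16 in R 4.3.3 (TMM, filterByExpr, robust quasi-likelihood, Benjamini-Hochberg over all genes tested, adjusted p under 0.05), checked on simulated data, with DESeq2 1.42.0 as an alternative. Single values were tested with exact two-sided permutation tests (scipy 1.17.1). The lowest and highest total per pool were 40061 and 187694 UMIs, which sets the precision; floors take 3 counts for a count of 0 and cover counting error only. Each pool holds 2 mice, so p-values measure the spread between pools.

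Members and the 22 gene lists were chosen with earlier results of these data known. Named genes are the gate genes, the 20 genes of highest pericyte ratio (5 CPM added), every called gene and the 10 of smallest p per comparison, up to 4 members of smallest p or 8 of highest level per list, and 8 genes the series turns on; Angptl4, Ttr, Hba-a1 and fibroblast genes were added after their values were seen. Promoters and positions are RefSeq's on GRCm38.p6, the coordinates of mm10. Some genes that this rule names are not reported here.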

Additional observations from a re-analysis of the deposited data

Results flagged for a closer look

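A pool stood apart from the other 3 of its group in 12 of 160 groups of 4 pools examined; chance alone gives about 1 in 20. The number after each is the gap between that pool and its neighbour as a share of the group's range. Morphine pool 3, which also had the highest share of Vtn-only members in its group, was the high one for Igf2 at 4455 CPM (0.94), Txnip at 497 CPM (0.965), Ptn at 10840 CPM (0.862) and Gucy1b1 at 875 CPM (0.903), and the low one for the astrocyte list at 1532 CPM (0.865). Whether that share bears on these values was not tested. Among mock pools, pool 1 had the highest share, 19.6%, with Igf2 at 1556 CPM. Igf2 was highest in mock pool 3, at 3970 CPM with a share of 12.9%. Mock pool 3 was the high one for Nfkbia at 200 CPM (0.872), Nr3c1 at 225 CPM (0.879) and the microglia list at 2422 CPM (0.928).

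Ttr, the transthyretin gene of the choroid plexus, was at 2493 CPM in pericytes of morphine pool 1 (0.92) and at 182 CPM in those of mock pool 1, the only mock pool above 0 (1.0). All other barcodes of those pools had 12995 CPM in morphine pool 1 and 122 CPM in mock pool 1. In morphine pool 1 the Ttr UMIs lay in 28 of 31 members. The endothelial list was high in morphine pool 2 at 518 CPM (0.878), and the oligodendrocyte precursor list in mock pool 1 at 411 CPM (0.83).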

How the results depend on the processing

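Of the 145 values that answer a comparison, 132 held. For shares, depth and mitochondrial percent this means direction and call, and for counts of called genes the number. With 1 pool left out or with the replicate block, the exact tests of these single values cannot give a p under 0.05. In those settings only the direction could change. List medians counted as held when they moved by no more than their SD over pools, whatever their sign. The heat shock median, at -0.04, ran from -0.069 to 0.177 without 1 replicate. For morphine, 0 genes were called with every alternative but 3: no filter on low counts gave 1 (Angptl4), the replicate block gave 1 (Ttr, which morphine pool 1 dominates) and the younger pools alone gave 4, all globin genes lower in morphine pools. For age, DESeq2 gave 8 calls, no filter on low counts 17 and the fits without 1 replicate 0 to 2. The morphine minus mock difference in pericyte share ran from -0.267 to 0.0338 percentage points without 1 replicate and that in median UMIs from -111 to 185, and the median UMIs differed by -69.5 with a marker sum of at least 10. The mitochondrial difference was -0.11 points without the ribosomal RNAs. Hspa1a, at -0.07 on the log2 scale, was 0.14 with a marker sum of at least 10, 0.0065 with at most 10% mitochondrial UMIs, 0.65 without members holding other cell types' transcripts, 0.14 without members over 10000 UMIs and 0.067 in the older pools alone. Without 1 replicate Hspa1a ran from -0.81 to 0.32 and Hspa1b from -0.19 to 0.85. The cause of these changes was not tested, except that dropping the filter adds genes and single-age fits use fewer pools. The alternatives without the Vtn-only members and without members over 10000 UMIs were chosen after seeing the data. Deviations of same-numbered pools correlated at 0.241, 0.00066, 0.366 and 0.386. The pools of replicate 2 did not deviate together, and morphine pool 2 correlated best with mock pool 4 (0.083), so the main test took no pairs. The other same-numbered pools did deviate together, which that test does not use. With the replicate block 86 genes had an unadjusted p under 0.05 in edgeR's test, against 49 without it, and the calls rose to 1. There mt-Rnr2 had an edgeR adjusted p of 0.200. With 31 to 91 pericytes per pool, depth limits the calls of genes under about the filter's count.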
